A study of Mus musculus with 16 samples.

Results

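The genes described here encode the regulators that turn cAMP and calcium signals into transcription: the CREB-type transcription factors *Creb1* and *Crem*, their coactivators *Crtc1*, *Crtc2* and *Crtc3*, and the salt-inducible kinases *Sik1*, *Sik2* and *Sik3* that restrain the coactivators. They were chosen by symbol, and all 8 were found among the 55401 genes of the deposited tables and passed the filter on low counts that 15808 genes passed. RNA-seq was performed on the whole hypothalamus of male C57BL/6 mice aged 3 months, kept in a cycle of light and darkness. There were 4 ASIC1a-/- and 4 WT mice at ZT13, and 4 ASIC1a-/- and 4 WT mice at ZT1, with ZT counted in hours from lights on, so that ZT13 fell early in the dark phase and ZT1 early in the light phase. ASIC1a-/- mice carry a global deletion of the acid-sensing ion channel ASIC1a, both genotypes were offspring of heterozygous parents, and the labels name no other allele or agent. No mouse gave more than 1 library, so the times are compared across animals.

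In a resting neuron, SIK kinases phosphorylate CRTC proteins, which are then held in the cytoplasm by 14-3-3 proteins. Cyclic AMP activates protein kinase A, which phosphorylates CREB and inhibits the SIK kinases, while calcium activates calcineurin, which dephosphorylates the CRTC proteins, so that they enter the nucleus and join CREB on cAMP response elements (CRE). *Sik1* is itself a CREB target in mice and is known to limit the response of the suprachiasmatic clock of the hypothalamus to light, whereas *Crem* also encodes ICER, a short repressor that closes another negative loop.

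The libraries held 34888522 to 42326259 counts in total (median 35750448). *Asic1*, the targeted gene, was at 69.9 to 71.9 CPM (counts relative to the library size after TMM scaling) in the 4 ASIC1a-/- libraries and 97.1 to 102 CPM in the 4 WT libraries at ZT13, and at 64.9 to 70.0 CPM in ASIC1a-/- and 101 to 106 CPM in WT libraries at ZT1, so the genotypes did not overlap. Its direction turned with the unit, since the estimated mean transcript length of *Asic1* was 1766 to 1862 bp in the ASIC1a-/- and 2980 to 3382 bp in the WT libraries. In TPM, which divides by that length, it was at 72.8 to 84.0 TPM in the ASIC1a-/- libraries and 60.8 to 71.1 TPM in the WT libraries. Of 10 markers of hypothalamic neurons, all 10 were tested, and their summed level was 1163 to 1589 CPM over the libraries. The summed level of 9 meningeal markers reached 193 CPM in 1 ASIC1a-/- library at ZT13 (replicate 2) and 390.0 CPM in 1 ASIC1a-/- library at ZT1 (replicate 4), against at most 74.0 CPM in the WT libraries. The sum of 5 markers of midbrain dopamine neurons was 30.5 to 71.2 CPM in ASIC1a-/- and 16.2 to 79.8 CPM in WT libraries at ZT13, and 92.1 to 238 CPM in ASIC1a-/- and 21.3 to 135 CPM in WT libraries at ZT1. The sum of 6 anterior pituitary markers was 0.730 to 9.95 CPM in ASIC1a-/- and 5.81 to 40.5 CPM in WT libraries at ZT13, and 4.67 to 14.1 CPM in ASIC1a-/- and 0.506 to 3.54 CPM in WT libraries at ZT1. None of these marker genes was at 0 in all libraries. Values without the 2 libraries high in meningeal markers are given beside the members that passed. The part of dopamine neurons, of pituitary cells and of meningeal cells in the other libraries in the results was not tested.

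*Sik1* was the member that varied most. In ASIC1a-/- hypothalamus it was 1.5-fold higher at ZT13 than at ZT1. Smaller differences between the times passed the test for *Sik2* in ASIC1a-/- mice and for *Creb1* in WT mice. No member passed for ASIC1a-/- against WT at either time, although *Sik1* in the ASIC1a-/- mice at ZT13 lay above every other library of the study. A gene is said to have passed, or to have been higher or lower, at an adjusted p under 0.05 by edgeR's quasi-likelihood test with Benjamini-Hochberg adjustment over the 15808 genes. In whole tissue, fewer cells of a type and less RNA per cell cannot be told apart.

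**Figure D1:**
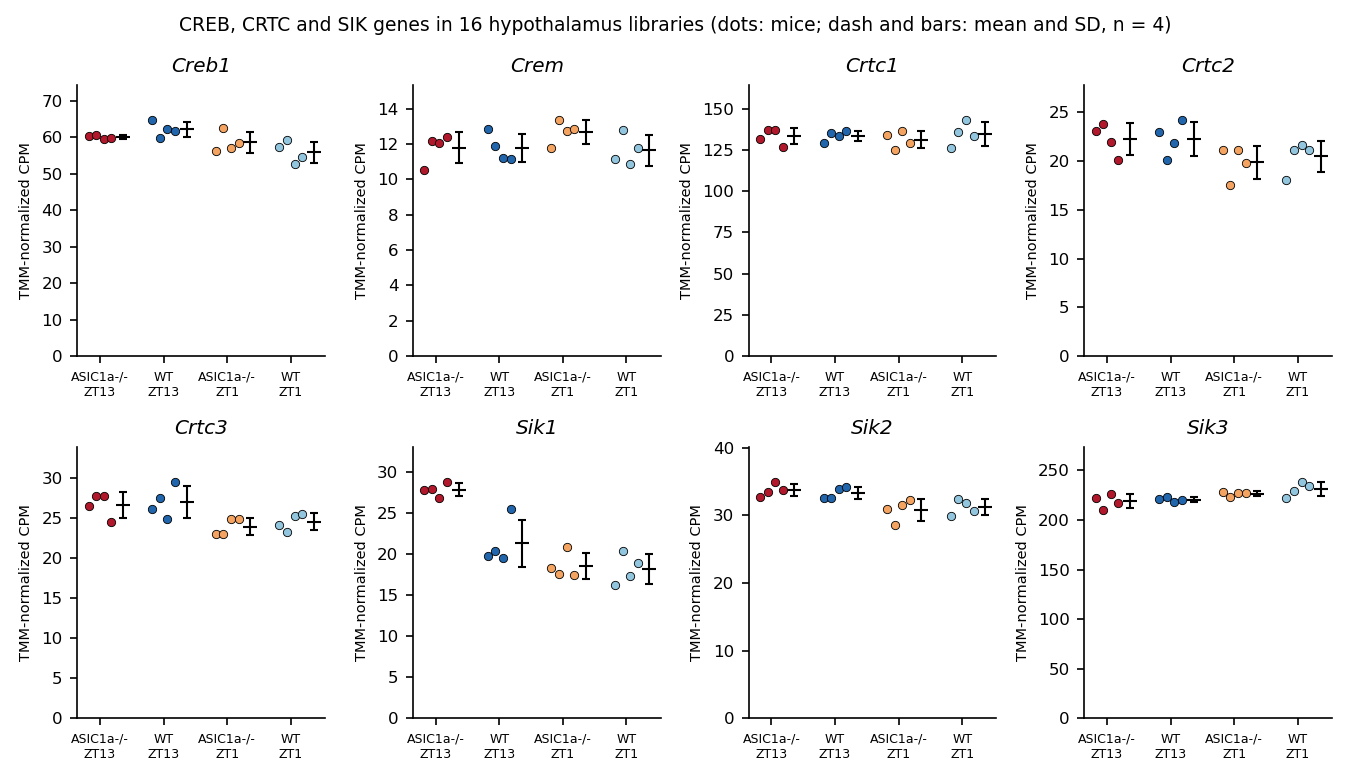
TMM-normalized CPM of the 8 genes in each library (dots, 1 mouse each) of the ASIC1a-/- and WT groups at ZT13 and ZT1, the mean of each group of 4 mice as a dash and its SD as bars. Each axis starts at 0, and *Sik1* at ZT13 was at 26.8 to 28.8 CPM in the ASIC1a-/- libraries, above every other library, while the groups of the other genes lay close together.

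The inducible kinase *Sik1* (ENSMUSG00000024042, chromosome 17, 31844250 to 31855804, minus strand, GRCm38) phosphorylates CRTC proteins. At ZT13 it was at 27.9, 27.9, 26.8 and 28.8 CPM in the ASIC1a-/- libraries, against 19.8, 20.4, 19.5 and 25.6 CPM in the WT libraries. At ZT1 it was at 18.3, 17.6, 20.8 and 17.4 CPM in the ASIC1a-/- libraries, against 16.3, 20.4, 17.4 and 18.9 CPM in the WT libraries. The 4 ASIC1a-/- libraries at ZT13 thus lay above all others, 3 of the 4 WT libraries at ZT13 lay within the range of the ZT1 libraries, and the genotypes overlapped fully at ZT1. The counts behind these values were 989 to 1138 in ASIC1a-/- and 687 to 919 in WT libraries at ZT13, and 624 to 749 in ASIC1a-/- and 582 to 726 in WT libraries at ZT1. RSEM divided none of them with another gene.

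Between ZT13 and ZT1 in ASIC1a-/- mice, the log2 fold change of *Sik1* was 0.59 (SE 0.0806, adjusted p = 0.00016), from means of 27.8 ± 0.804 CPM at ZT13 and 18.5 ± 1.58 CPM at ZT1 (SD, n = 4 mice each). It passed in all 28 alternative analyses, with log2 fold changes of 0.56 to 0.64. Without the 2 libraries high in meningeal markers the log2 fold change was 0.56 (adjusted p = 0.00206). In the same comparison, over all 8 ASIC1a-/- libraries, 3 of the 5 markers of midbrain dopamine neurons were lower at ZT13, with a median log2 fold change of -1.42 over the 5. Of the 9 meningeal markers 0 had a log2 fold change above 0 there (median -0.94), and 0 passed. In WT mice the log2 fold change was 0.23 (SE 0.0826, adjusted p = 0.0802), from means of 21.3 ± 2.85 CPM at ZT13 and 18.2 ± 1.81 CPM at ZT1. The times overlapped in WT, and WT replicate 4 at ZT13, at 25.6 CPM, stood apart from the other 3 WT libraries of that time, at 19.5 to 20.4 CPM. The WT difference passed in 1 alternative, when WT replicate 2 at ZT1 was omitted (log2 fold change 0.29, adjusted p = 0.0419).

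For ASIC1a-/- against WT at ZT13, the log2 fold change of *Sik1* was 0.38 (95% interval 0.22 to 0.55, SE 0.0797, unadjusted p = 0.00014 by edgeR), which ranked 21 among the 15808 genes and did not pass (adjusted p = 0.105). It was the one member of 8 whose libraries did not overlap between the genotypes at ZT13, and 2.58% of all tested genes did not overlap. At ZT1 it was none of the 8, with 2.92% of all genes not overlapping. The call depended on the analysis: *Sik1* passed with no filter on low counts (adjusted p = 0.00571), with DESeq2 (adjusted p = 0.0032) and without WT replicate 4 at ZT13 (log2 fold change 0.48, adjusted p = 0.00349), and the adjusted p reached 0.551 over the 28 alternatives. The direction was the same in all of them. At ZT1 the log2 fold change was 0.02 (95% interval -0.15 to 0.20, adjusted p = 0.966), and averaged over both times it was 0.20 (SE 0.0577, adjusted p = 0.626). The change with time was larger in ASIC1a-/- than in WT mice by 0.36 on the log2 scale (interaction of genotype and time, SE 0.115, unadjusted p = 0.00609 by edgeR), and this difference did not pass (adjusted p = 1.0 when rounded). It was 0.46 without the WT library that stood apart, and 0.30 to 0.46 over the omission of each single library. The interaction of *Sik1* passed in none of the 27 alternatives.

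*Sik2* (ENSMUSG00000037112, chromosome 9, 50892801 to 51009073, minus strand) encodes a kinase that phosphorylates CRTC proteins in neurons. At ZT13 it was at 32.8, 33.5, 34.9 and 33.8 CPM in the ASIC1a-/- libraries, against 32.6, 32.5, 33.9 and 34.2 CPM in the WT libraries. The values at ZT1 were 31, 28.6, 31.5 and 32.3 CPM in the ASIC1a-/- libraries, against 29.9, 32.5, 31.8 and 30.6 CPM in the WT libraries. All ZT13 libraries lay above all ZT1 libraries, while the genotypes overlapped at both times. Its log2 fold change for ZT13 against ZT1 was 0.13 in ASIC1a-/- mice (SE 0.0396, adjusted p = 0.0416) and 0.09 in WT mice (SE 0.0398, adjusted p = 0.136), and the changes in the 2 genotypes differed by 0.04 on the log2 scale (95% interval -0.08 to 0.15, adjusted p = 1.0 when rounded). Without the 2 libraries high in meningeal markers it was 0.16 in ASIC1a-/- mice (adjusted p = 0.0497). With all libraries, the median log2 fold change of the 9 meningeal markers was -0.94 in this comparison. The call in ASIC1a-/- mice was near the threshold and was lost in 14 of 28 alternatives, with adjusted p up to 0.189. These were no filter, both TPM scales, a length offset, the 8 libraries alone, and the omission of any ASIC1a-/- library at ZT13, of ASIC1a-/- replicates 1, 2 or 3 at ZT1 (log2 fold change 0.09 without replicate 2), or of WT replicates 1 or 3 at ZT13. Between genotypes the log2 fold changes were 0.02 at ZT13 and -0.02 at ZT1.

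*Sik3* (ENSMUSG00000034135, chromosome 9, 46012820 to 46224194, plus strand) encodes a kinase known in mice for its part in setting the need for sleep. At ZT13 it was at 222, 210.5, 226 and 217 CPM in the ASIC1a-/- libraries, against 221, 223, 218 and 219.7 CPM in the WT libraries. At ZT1 the level was 228, 223, 227 and 227 CPM in the ASIC1a-/- libraries, against 222, 229.6, 238 and 234 CPM in the WT libraries. The groups overlapped in all 4 comparisons. The log2 fold change for ZT13 against ZT1 was -0.05 in ASIC1a-/- (95% interval -0.10 to 0.01, adjusted p = 0.246) and -0.07 in WT mice (95% interval -0.12 to -0.01, adjusted p = 0.0908). It passed in WT in 1 alternative, without WT replicate 1 at ZT1 (log2 fold change -0.09, adjusted p = 0.0363), and in ASIC1a-/- it turned to 0.02 on the TPM scales.

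Promoter windows from 250 bases before to 50 after the start site were taken from RefSeq (GRCm38.p6). They are described for 5 of the 8 genes: *Creb1*, *Crtc1*, *Crtc3*, *Sik2* and *Sik3*. *Sik1* and *Crtc2* had no entry, and *Crem* was left out beforehand, whether or not it had one. The CRE octamer TGACGTCA, to which CREB dimers bind, is in 1.79% of the 32851 windows of the table and in none of these 5. The CRE core TGACG, which is part of the octamer, was searched on both strands and is in 20.8% of all windows, in *Sik2* and *Sik3* and in none of the other 3 windows. Because *Sik2* was one of the members that passed, and *Sik3* carries 3 cores, while 1.03% of all windows carry at least 3, both are shown from 250 bases before to 20 after the start site, with the cores in capitals. *Sik2* has cores that begin 1 base before the start site and at base 13 after it (window chr9:51009054-51009323, minus strand), and *Sik3* has cores that begin 133, 116 and 57 bases before it (window chr9:46012570-46012839, plus strand).
Sik2: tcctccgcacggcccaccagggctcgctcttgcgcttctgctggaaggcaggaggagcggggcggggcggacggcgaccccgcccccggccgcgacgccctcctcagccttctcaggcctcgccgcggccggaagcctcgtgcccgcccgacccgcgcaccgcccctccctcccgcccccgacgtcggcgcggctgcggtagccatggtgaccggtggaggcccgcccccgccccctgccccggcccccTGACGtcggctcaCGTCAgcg
Sik3: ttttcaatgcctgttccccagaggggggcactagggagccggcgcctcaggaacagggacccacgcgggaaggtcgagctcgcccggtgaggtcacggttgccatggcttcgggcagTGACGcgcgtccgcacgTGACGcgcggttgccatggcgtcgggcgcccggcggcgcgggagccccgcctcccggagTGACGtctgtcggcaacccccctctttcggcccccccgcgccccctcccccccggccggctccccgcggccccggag
A match of these letters is a description of the window and not a binding site. Among the windows of genes known as CREB targets, 22 of 37 (59.5%) held the core and 6 of 37 (16.2%) the octamer. These windows belong to 20 of the 27 targets listed below, and some genes have more than 1. Counted by gene, 19 of the 20 held the core and 6 the octamer.

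*Creb1* (ENSMUSG00000025958, chromosome 1, 64532645 to 64604548, plus strand) encodes CREB, which binds CRE sites and is activated by phosphorylation. At ZT13 it was at 60.4, 60.5, 59.3 and 59.8 CPM in the ASIC1a-/- libraries, against 64.7, 59.7, 62.2 and 61.7 CPM in the WT libraries. The ZT1 libraries were at 56.2, 62.6, 56.9 and 58.4 CPM in the ASIC1a-/- libraries, against 57.2, 59.1, 52.5 and 54.7 CPM in the WT libraries. In ASIC1a-/- mice the highest library was one of ZT1, in WT mice the times did not overlap, and the genotypes overlapped at both times. The log2 fold change for ZT13 against ZT1 was 0.04 in ASIC1a-/- (95% interval -0.05 to 0.12, adjusted p = 0.602) and 0.15 in WT mice (SE 0.0400, adjusted p = 0.0173). Without the 2 libraries high in meningeal markers, both from ASIC1a-/- mice, the value in WT was 0.15 (adjusted p = 0.0241). Of the 6 anterior pituitary markers 3 were tested, and all 3 were higher at ZT13 in WT mice, with a median log2 fold change of 3.66. The difference between the changes of *Creb1* in the genotypes was -0.12 on the log2 scale (95% interval -0.23 to 0.00, unadjusted p = 0.0552 by edgeR) and did not pass. The call in WT was lost in 6 of 28 alternatives, on both TPM scales, with an offset for transcript length, and without WT replicates 3 or 4 at ZT1 or WT replicate 1 at ZT13, with adjusted p up to 0.330.

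*Crem* (ENSMUSG00000063889, chromosome 18, 3266048 to 3337748, minus strand) encodes activators and the ICER repressor from 39 annotated transcripts of 290 to 2931 bp. At ZT13 it was at 10.5, 12.2, 12.1 and 12.4 CPM in the ASIC1a-/- libraries, against 12.9, 11.9, 11.2 and 11.1 CPM in the WT libraries. At ZT1 it was at 11.8, 13.4, 12.7 and 12.8 CPM in the ASIC1a-/- libraries, against 11.1, 12.8, 10.9 and 11.7 CPM in the WT libraries. The groups overlapped in every comparison. For ASIC1a-/- against WT, the log2 fold change was 0.00 at ZT13 (95% interval -0.14 to 0.15, adjusted p = 1.0 when rounded) and 0.12 at ZT1 (95% interval -0.02 to 0.27, adjusted p = 0.734), and on the log2(TPM + 1) scale the difference at ZT1 was 0.00 when rounded. For ZT13 against ZT1 it was -0.10 in ASIC1a-/- and 0.02 in WT mice, and neither passed. *Crem* had the lowest counts of the 8 genes, 386 to 513 per library.

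The CRTC coactivators, which bind the leucine zipper of CREB and raise its activity, did not pass in any comparison. *Crtc1* (ENSMUSG00000003575, chromosome 8, 70382355 to 70439579), the member most tied to neurons, was at 132, 137, 137 and 127 CPM in the ASIC1a-/- libraries, against 129, 135, 133 and 136 CPM in the WT libraries at ZT13. The values at ZT1 were 134, 125, 137 and 129 CPM in the ASIC1a-/- libraries, against 126, 136, 143 and 134 CPM in the WT libraries. All groups overlapped, and its log2 fold changes for ASIC1a-/- against WT and for ZT13 against ZT1 within a genotype lay between -0.04 and 0.02. *Crtc2* (ENSMUSG00000027936, chromosome 3, 90254163 to 90264125), known from the fasting response of the liver, was at 23.1, 23.8, 22.0 and 20.1 CPM in the ASIC1a-/- libraries, against 23.0, 20.1, 21.9 and 24.2 CPM in the WT libraries at ZT13. At ZT1 the level was 21.2, 17.5, 21.1 and 19.8 CPM in the ASIC1a-/- libraries, against 18.1, 21.1, 21.6 and 21.1 CPM in the WT libraries. The times overlapped in both genotypes, and the log2 fold change for ZT13 against ZT1 was 0.16 in ASIC1a-/- (95% interval 0.01 to 0.31, adjusted p = 0.162) and 0.12 in WT mice (95% interval -0.03 to 0.27, adjusted p = 0.299).

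*Crtc3* (ENSMUSG00000030527, chromosome 7, 80586627 to 80688877), studied mostly in fat tissue and pigment cells, was at 26.5, 27.8, 27.8 and 24.5 CPM in the ASIC1a-/- libraries, against 26.2, 27.6, 24.9 and 29.5 CPM in the WT libraries at ZT13. The ZT1 libraries were at 23.1, 23.1, 24.9 and 24.9 CPM in the ASIC1a-/- libraries, against 24.2, 23.3, 25.3 and 25.6 CPM in the WT libraries. In each genotype 1 of the 4 libraries at ZT13 lay within the ZT1 range and the other 3 above it. The log2 fold change for ZT13 against ZT1 was 0.15 in ASIC1a-/- (95% interval 0.04 to 0.27, adjusted p = 0.0730) and 0.14 in WT mice (95% interval 0.03 to 0.25, adjusted p = 0.101). It passed in ASIC1a-/- mice in 1 alternative, without ASIC1a-/- replicate 4 at ZT13 (log2 fold change 0.19, adjusted p = 0.0285).

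**Figure D2:**
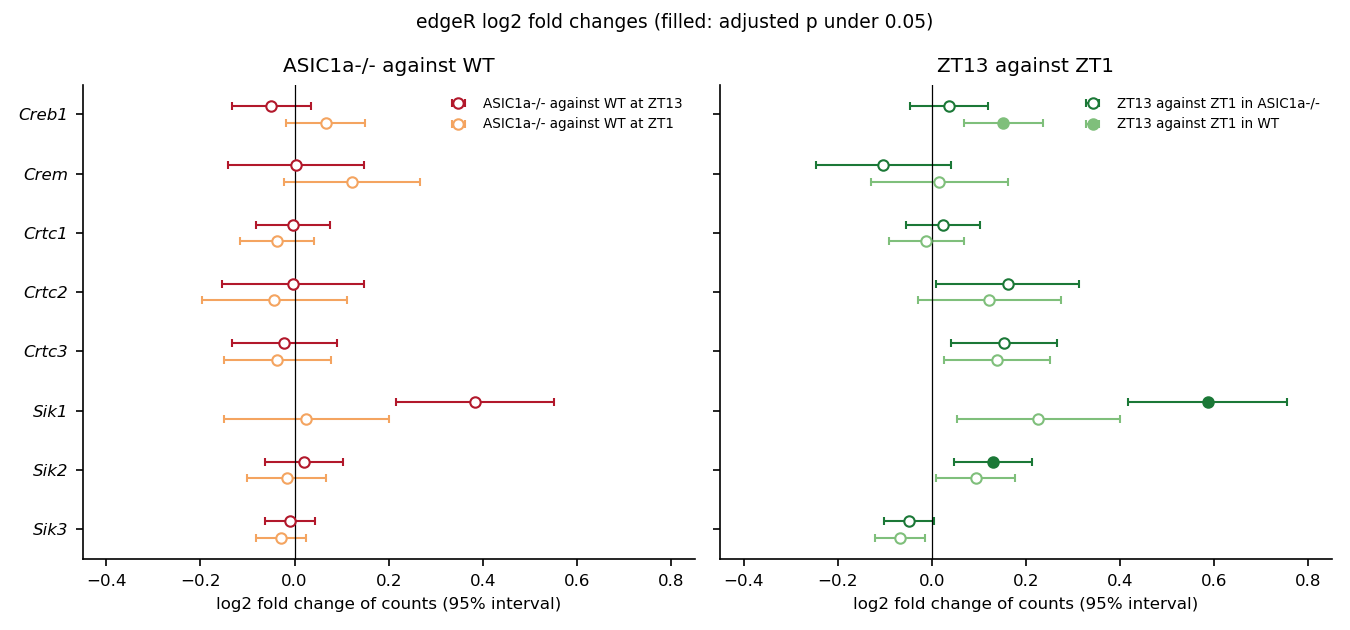
Log2 fold changes of counts with 95% intervals for the 8 genes, for ASIC1a-/- against WT (left, at ZT13 and ZT1) and ZT13 against ZT1 (right, in ASIC1a-/- and WT); filled points passed at an adjusted p under 0.05. The interval of *Sik1* for ASIC1a-/- against WT at ZT13 runs from 0.22 to 0.55 and those of the other genes include 0, and on the right *Sik1* and *Sik2* in ASIC1a-/- and *Creb1* in WT are filled.

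For ASIC1a-/- against WT, 0 of 8 members passed at ZT13, where 0.101% of the tested genes passed, and 0 of 8 at ZT1, where 0.0127% passed. At an unadjusted p under 0.05 these counts were 1 of 8 at ZT13 and 0 of 8 at ZT1, and with DESeq2 1 and 0 passed. Averaged over both times 0 of 8 members passed (0.0633% of the tested genes, 0.0506% higher), with 1 at an unadjusted p under 0.05 and 0 with DESeq2. The interaction gave 0 of 8 members (0.019% of the tested genes), with 1 at an unadjusted p under 0.05 and 0 with DESeq2. The other 7 members had log2 fold changes for ASIC1a-/- against WT of -0.05 to 0.02 at ZT13. The median over the 8 was 0.00 at ZT13 and -0.02 at ZT1, beside 0.00 over all genes at both times.

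For ZT13 against ZT1, 2 of 8 members were higher in ASIC1a-/- mice, where 11.3% of the tested genes passed (6.72% higher, 4.62% lower), and 1 of 8 was higher in WT mice, where 13.3% passed (7.52% higher, 5.76% lower). The counts of members are too small to be set apart from these shares. In CPM, libraries of the times did not overlap for 2 of 8 members in ASIC1a-/- mice (*Sik1*, *Sik2*), where 15.7% of the tested genes did not overlap. In WT mice they did not overlap for 2 of 8 (*Creb1*, and *Sik2* by a narrow margin), where 18.3% did not. The median log2 fold change over the 8 was 0.08 in ASIC1a-/- and 0.11 in WT mice, beside -0.01 and 0.00 over all genes. The comparisons within genotypes and those between genotypes share libraries, so their values for a gene are not independent of one another.

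Per length, *Sik3* was the most abundant of the 8 transcripts and *Sik1* the least abundant. The mean over the 16 libraries was 110.4 TPM (a unit that divides by transcript length) for *Sik3*, 48.6 TPM for *Crtc1*, 21.6 TPM for *Crem*, 21.0 TPM for *Crtc2*, 15.8 TPM for *Creb1*, 14.6 TPM for *Sik2*, 10.1 TPM for *Crtc3* and 9.58 TPM for *Sik1*. Neighbours in this order whose ranges overlapped were *Crem* and *Crtc2* (*Crem* above in 9 of 16 libraries), *Crtc2* and *Creb1* (*Crtc2* above in all 16), *Creb1* and *Sik2* (*Creb1* above in 14 of 16), and *Crtc3* and *Sik1* (*Crtc3* above in 12 of 16). The ranges of the other neighbouring pairs did not overlap. In CPM, which compares a gene with itself only, the coefficient of variation over the 16 libraries was 20.2% for *Sik1* and 3.01% to 8.75% for the other 7 genes.

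**Figure D3:**
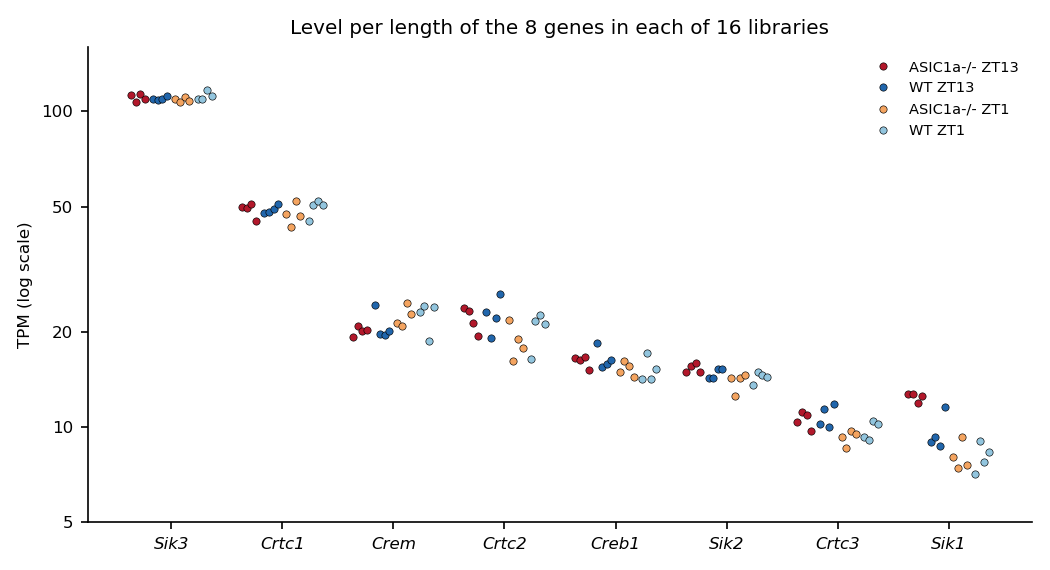
TPM of the 8 genes in each of the 16 libraries on a log axis, coloured by group, in order of the mean over all libraries. *Sik3* lies at 107 to 117 TPM in every library, and *Sik1* at 7.11 to 12.7 TPM has the lowest mean, with its 4 ASIC1a-/- libraries of ZT13 at the top of its range.

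Of the summed TPM of the SIK genes, *Sik3* made up 82.0% ± 1.58 and *Sik2* 10.9% ± 0.424 (SD, n = 16 libraries). The share of *Sik1* was 9.02% ± 0.418 in ASIC1a-/- and 7.18% ± 0.818 in WT mice at ZT13, and 6.18% ± 0.511 in ASIC1a-/- and 6.00% ± 0.599 in WT mice at ZT1 (SD, n = 4 each). Of the summed TPM of the CRTC genes, *Crtc1* made up 61.0% ± 1.96, *Crtc2* 26.2% ± 1.96 and *Crtc3* 12.7% ± 0.758 (SD, n = 16). *Crem* made up 57.6% ± 2.65 of the sum of *Crem* and *Creb1*. The order within each family was thus led by *Sik3*, *Crtc1* and *Crem*, and TPM shares of *Crem* rest on short transcripts, since its mean transcript length was 1064 to 1330 bp against 6774 to 7873 bp for *Creb1*.

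The mean transcript length that RSEM estimated for a gene moves when the mix of its transcripts moves, for instance between the ICER and the full-length forms of *Crem*. For *Crem* it was 1208, 1298, 1312 and 1316 bp in the ASIC1a-/- libraries, against 1158, 1285, 1253 and 1249 bp in the WT libraries at ZT13. At ZT1 it was 1191, 1329.8, 1151 and 1207 bp in the ASIC1a-/- libraries, against 1064, 1166, 1276 and 1091 bp in the WT libraries. The groups overlapped, and no comparison of *Crem* passed with limma over the 11346 genes fitted (smallest adjusted p = 0.842, for ZT13 against ZT1 in WT). No other member passed in any of the 6 comparisons either, where 0.0176% of genes passed at ZT13, 0.0176% at ZT1 and 0.0264% averaged over both times for ASIC1a-/- against WT, and 0 genes in the comparisons of times and in the interaction. The smallest adjusted p of a member was 0.414, for *Sik2* between ZT13 and ZT1 in WT mice, with a mean of 4497 ± 76.3 bp at ZT13 and 4328 ± 57.7 bp at ZT1 (SD, n = 4 each). At an unadjusted p under 0.05 by limma stood *Sik2* (0.00292), *Sik3* (0.0121) and *Sik1* (0.0408) between the times in WT mice and *Sik3* (0.0244) between the times in ASIC1a-/- mice.

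Profiles over the 16 libraries were compared as the root mean square difference between log2 CPM values standardised to a mean of 0 and an SD of 1, among 14966 genes with a mean of at least 1 CPM, for each member that passed in a comparison. The genes nearest to *Sik1* were *Fosl2* (difference 0.360), which encodes an AP-1 factor, *Fos* (0.385), an early response gene and CREB target, and *Pygo2* (0.406), a chromatin-binding coactivator of Wnt signalling. The mean of *Fosl2* at ZT13 was 20.4 CPM with ASIC1a deleted and 16.2 CPM in WT. At ZT1 it was 13.1 CPM with ASIC1a deleted and 12 CPM in WT, the same order of groups as *Sik1*. The genes nearest to *Sik2* were *Trp53* (0.392), *Zfp142* (0.411) and *Usf3* (0.421), and those nearest to *Creb1* were *Orc2* (0.410), *Zmym1* (0.473) and *Slc35e2* (0.497). Among the members, the nearest to *Sik1* was *Sik2*, at a difference of 0.750 and rank 356 of the 14966 genes, and *Sik3* was at 1.76 and rank 13671. The nearest to *Sik2* were *Crtc2* (0.745, rank 655) and *Sik1* (rank 684), and the nearest to *Creb1* was *Sik1* (1.14, rank 3087). These differences are descriptions, since the libraries share group and depth.

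Of the 125 other genes of the pathway, all 125 were tested, in 8 lists. Among 27 genes known as targets of CREB, 10 were higher and 0 lower for ASIC1a-/- against WT at ZT13, where 0.0822% of the tested genes were higher, with a median log2 fold change of 0.28 over the list beside 0.00 over all genes. They were *Egr1*, *Egr2*, *Fos*, *Fosb*, *Junb*, *Nr4a1*, *Nr4a3*, *Btg2*, *Sgk1* and *1700016P03Rik*, all of which the study picked on these same libraries, so that their count is not independent evidence. The mean of *Fos* at ZT13 was 29.3 ± 1.75 CPM in ASIC1a-/- against 13.1 ± 3.47 CPM in WT libraries (SD, n = 4 each), a log2 fold change of 1.16 (adjusted p = 0.00019 by edgeR) beside 0.38 for *Sik1*. That of *Egr1* was 63.5 ± 5.95 CPM in ASIC1a-/- against 26.4 ± 2.41 CPM in WT libraries (log2 fold change 1.27, adjusted p = 1.3e-08 by edgeR). At ZT1 0 of the 27 passed by edgeR (1 at an unadjusted p under 0.05), and the median was 0.03. The clock gene *Per1* had a log2 fold change of 0.10 between genotypes at ZT13 (adjusted p = 1.0 when rounded).

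Between ZT13 and ZT1, 15 of these 27 targets were higher and 1 lower in ASIC1a-/- mice, beside 6.72% and 4.62% of all tested genes. In WT mice 7 were higher and 2 lower, beside 7.52% and 5.76% of all tested genes. The median log2 fold change over the list was 0.47 in ASIC1a-/- and 0.09 in WT mice, beside -0.01 and 0.00 over all genes. The 27 include the 10 genes that the study picked on these same libraries, so these counts and medians are not independent evidence either. *Per1* was higher in both genotypes, with log2 fold changes of 0.47 in ASIC1a-/- and 0.35 in WT mice. Over the alternatives, the number higher for ASIC1a-/- against WT at ZT13 was 8 to 11, and it was 15 in all of them between the times in ASIC1a-/- mice. The interaction passed for 2 of the 27, *Egr1* and *Nr4a1*, both among those picked genes (1 to 7 over the alternatives), and not for *Sik1*. Over all tested genes it passed for 0.019%.

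**Figure D4:**
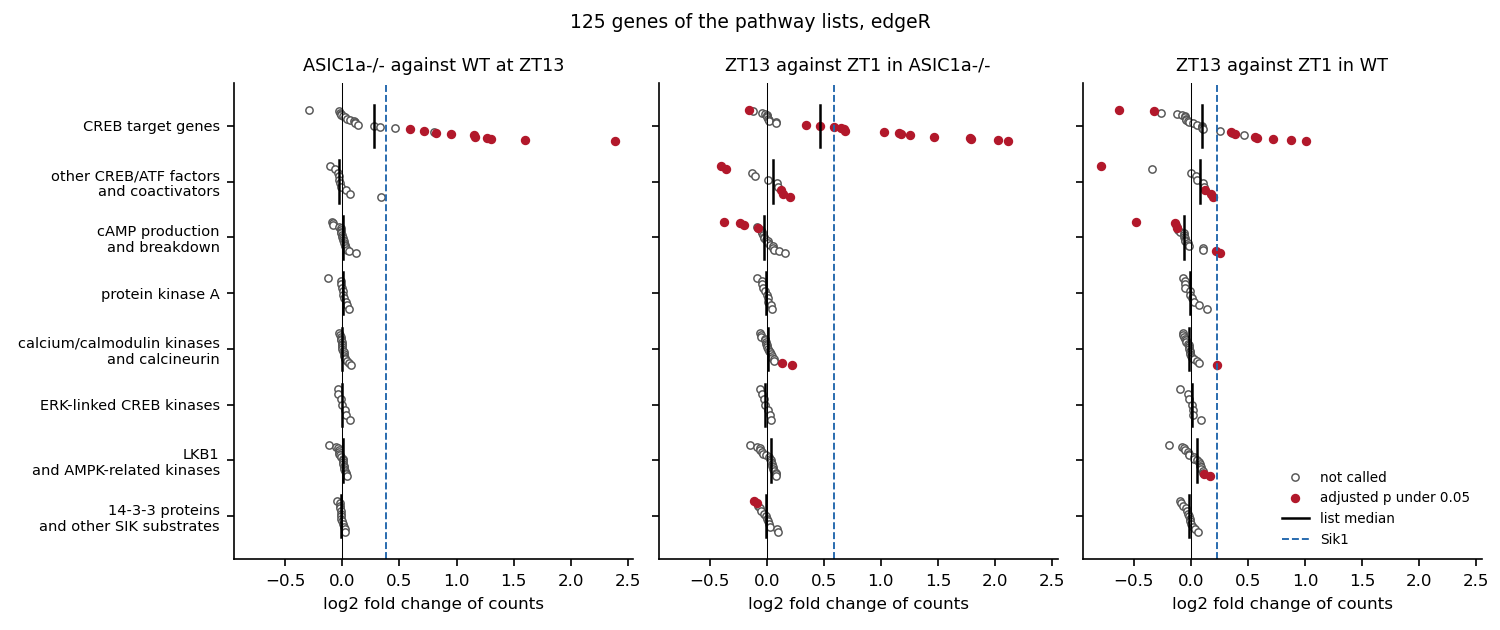
Log2 fold changes of counts of the 125 pathway genes in 8 lists (filled: adjusted p under 0.05; black bar: list median), for ASIC1a-/- against WT at ZT13 and for ZT13 against ZT1 in ASIC1a-/- and in WT, with *Sik1* as a dashed line. At the left 10 CREB target genes and no gene of another list are filled, and *Sik1* at 0.38 lies to the right of the list median of 0.28.

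The other 7 lists hold kinases and second messengers upstream of CREB, CRTC and SIK, other CREB/ATF factors, and a list of 14-3-3, *Hdac* and *Mef2* genes. Between genotypes, 0 of their 98 genes passed for ASIC1a-/- against WT at ZT13, at ZT1 or averaged over both times by edgeR, with 4 at ZT13, 5 at ZT1 and 3 averaged at an unadjusted p under 0.05. Between ZT13 and ZT1, 13 of the 98 passed in ASIC1a-/- mice, where 11.3% of the tested genes passed, and 12 of the 98 in WT mice, where 13.3% passed. Of 10 other CREB/ATF factors and coactivators, 3 were higher and 2 lower in ASIC1a-/- and 3 higher and 1 lower in WT mice, among them the acetyltransferase gene *Ep300*, whose product binds CREB, with log2 fold changes of 0.21 in ASIC1a-/- and 0.19 in WT. Of 20 genes of cAMP production and breakdown, 0 were higher and 4 lower in ASIC1a-/- and 2 higher and 3 lower in WT mice, and the calcium-stimulated cyclase *Adcy8* was lower by log2 fold changes of -0.37 in ASIC1a-/- and -0.48 in WT. Of 19 calcium/calmodulin kinase and calcineurin genes, 2 were higher in ASIC1a-/- and 1 in WT mice (*Camk1g*, 0.22 in ASIC1a-/- and 0.23 in WT).

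Of 19 genes of LKB1, the kinase that activates SIK proteins, and of AMPK-related kinases, 0 passed in ASIC1a-/- and 2 were higher in WT mice at ZT13 (*Strada*, log2 fold change 0.16, and *Mark2*, 0.12). At an unadjusted p under 0.05 by edgeR these counts were 3 of 19 in ASIC1a-/- mice, beside 26.3% of all genes, and 10 of 19 in WT mice, beside 27.1%. The 13 genes listed as 14-3-3 proteins and other SIK substrates were 14-3-3, *Hdac* and *Mef2* genes. Of these, 2 were lower in ASIC1a-/- (*Ywhaq*, -0.11, and *Ywhag*, -0.09), both of them 14-3-3 genes, and 0 passed in WT mice (3 at an unadjusted p under 0.05). None of 10 protein kinase A genes and none of 7 genes of ERK-linked CREB kinases passed between the times in either genotype by edgeR, with 1 protein kinase A gene in WT mice at an unadjusted p under 0.05.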

How the data were processed

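RNA-seq libraries of 16 mouse hypothalami, 4 per group, were analysed from 1 deposited RSEM gene table per library. The deposited expected counts, TPM values and transcript lengths (bp) had been made by the authors with RSEM. Per the submitters' processing notes, cutadapt 1.8, STAR 2.5.3a, HTSeq 0.9.1 and RSEM 1.2.31 were used, and the genome builds GRCm38 and mm9 are named. Expected counts were rounded to whole numbers and genes above 1 CPM in at least 1 library were kept (15808 genes). They were scaled by TMM and fitted over the 4 groups with edgeR 4.0.16 (R 4.3.3, quasi-likelihood F test), with Benjamini-Hochberg adjustment over all genes. Transcript lengths were fitted on the log2 scale with limma 3.58.1. Intervals are 95%. Total counts were 34888522 to 42326259 per library, which sets the counting error of each gene, and no column was left unmapped. The 6 comparisons were ASIC1a-/- against WT at ZT13, at ZT1 and averaged, the times within each genotype, and the interaction. Each was recomputed under other filters, scalings, tools (DESeq2 1.42.0, limma-voom), TPM scales, a replicate block, without 2 libraries, and without each library. Tools were tested on simulated data. Positions came from GENCODE vM21 (GRCm38). Named were all 8 members, *Asic1*, up to 4 passing genes of smallest p per pathway list and comparison, or up to 2 where none passed, and the 3 genes nearest in profile to each member that passed; the 10 CREB targets and *Per1* were named after their values were seen. The members and lists were chosen with earlier results of these data known.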

Additional observations from a re-analysis of the deposited data

Results flagged for a closer look

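In 64 groups of 4 libraries (CPM and transcript length of the 8 genes), 8 had 1 library far from the other 3 by Dixon's criterion. Chance alone meets it in about 1 in 20 groups of normally spread values. That share does not hold for lengths that sit at the longest transcript, such as 5115 bp for *Crtc3* and 4521 bp for *Sik1*. In CPM, *Sik1* was at 25.6 CPM in WT replicate 4 at ZT13 (others 19.5 to 20.4), *Crem* at 10.5 CPM in ASIC1a-/- replicate 1 at ZT13 (others 12.1 to 12.4), and *Crtc2* at 18.1 CPM in WT replicate 1 at ZT1 (others 21.1 to 21.6). The library with high *Sik1* is the one without which the difference between genotypes at ZT13 passed.

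In transcript length, *Crem* was at 1208 bp in the same ASIC1a-/- replicate 1 at ZT13 (others 1298 to 1316), *Creb1* at 7801 bp in ASIC1a-/- replicate 4 at ZT1 (others 7255 to 7322), *Crtc3* at 4864 bp in ASIC1a-/- replicate 1 at ZT1 (others 5115), *Sik3* at 4003 bp in ASIC1a-/- replicate 2 at ZT1 (others 4120 to 4136), and *Sik1* at 4501 bp in WT replicate 3 at ZT1 (others 4521).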

How the results depend on the processing

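Of 1328 alternative values for the 48 log2 fold changes, 1295 kept their side of the threshold, of which 63 changed sign within 1 SE of 0 and the others kept their direction, 20 lost and 6 gained the call, and 7 reversed without a call. The reversed values were, for *Crem* between genotypes, -0.0017 and -0.0016 at ZT1 and -0.024 and -0.025 averaged on log2(TPM + 1) and log2(TPM + 0.1), and -0.020 averaged with a length offset, and for *Sik3* between the times in ASIC1a-/- mice 0.025 on both TPM scales; the cause was not tested. The number of members that passed at ZT13 between genotypes was 1 with no filter and with DESeq2 (0 to 1 without single libraries). Between the times it was 1 in ASIC1a-/- mice with no filter, both TPM scales, a length offset and only the 8 libraries compared (1 to 2 without single libraries), and 0 in WT mice with both TPM scales and a length offset (0 to 2 without single libraries). Over all genes, no filter gave 15 calls at ZT1, 29 at ZT13, 20 averaged and 17 for the interaction, DESeq2 7, 30, 23 and 13, against 2, 16, 10 and 3. For the times, log2(TPM + 1) gave 971 calls in ASIC1a-/- and 879 in WT, and the length offset 916 and 1156, against 1792 and 2099. On log2(TPM + 0.1) the numbers were 969 in ASIC1a-/- and 882 in WT, and between genotypes both TPM scales gave 1 at ZT1 and 6 averaged. Without the 2 libraries high in meningeal markers there were 1099 calls between the times in ASIC1a-/- mice and 6 for the interaction. Single libraries moved the number of calls over 1.5 times as well: between the times to 1162 in ASIC1a-/- without ASIC1a-/- replicate 1 at ZT13, and in WT to 1394 without WT replicate 4 at ZT1 and 1320 without WT replicate 4 at ZT13; between genotypes at ZT1 to 5 without WT replicate 1 at ZT1; and for the interaction to 5, 7 and 6 without WT replicate 2 at ZT1, WT replicate 4 at ZT13 and ASIC1a-/- replicate 2 at ZT13. Same-numbered libraries of different groups showed little common deviation in the median (r 0.00874 over 24 pairs, 4 pairs over 0.1), beside 0.0168 over the 72 other pairs. Single same-numbered pairs ranged from r -0.316 to 0.217, and 5 of 16 libraries were nearest to one of their own number. The 2 libraries high in meningeal markers, of different numbers, had r 0.468. All mice were treated as unpaired. Such correlations cannot exclude that the numbers mark a shared handling of the mice or libraries. With a replicate block 2 members passed between the times in ASIC1a-/-, 1 in WT and 0 in the other comparisons, the log2 fold change of *Sik1* in ASIC1a-/- was 0.58, and the interaction passed for 5 genes. With 4 mice a group, the 95% interval of *Sik1* between genotypes at ZT13 was 0.22 to 0.55 on the log2 scale, which shows how coarsely this difference was resolved.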
